A study of Sus scrofa with 6 samples.

Results

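The cells described here were taken from porcine midbrain-like organoids on day 45 of culture and were picked for transcripts of motile cilia. A cell was gated when it had 2000 or more UMIs (unique molecular identifiers, one per captured transcript) and at most 7000 detected genes, when at least 2 of the 3 genes FOXJ1, RSPH1 and TEKT1 had a UMI, and when the neuronal gene STMN2 had fewer than 3 UMIs. These limits selected 247 of 10506 cells within the UMI and gene limits in library A of day 45 (D45) and 198 of 11140 in library B, which made 445 of 21646 cells. The whole series held 104820 barcodes in 6 libraries, 2 from each of days 11, 28 and 45, and 69679 of them lay within the same UMI and gene limits. Because the members were chosen by their measured UMIs of the 4 genes, the levels of those genes are given as a description and carry no test. The working name of multiciliated ependymal-like cells was compared with the remaining genes of the program. Its motile cilium part was borne out for only a portion of the gated cells. Its ependymal part was not: against astrocyte-like cells, defined below, 2 of 6 tested ependymal genes outside the axoneme rose, 2 fell and 2 had no call. The group is therefore called gated cells throughout.

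All 6 libraries came from 1 porcine embryonic stem cell line, IVF_1_ pESC_FIW, derived from an in vitro fertilised blastocyst, for which the labels name no genetic modification, and all organoids were patterned toward the ventral midbrain. By the study's methods, embedding in Matrigel and the maturation medium with the Notch pathway inhibitor DAPT, GDNF and db-cAMP, beside BDNF and ascorbic acid, came after D11. The D11 libraries therefore differ from those of D28 and D45 in medium as well as in day, which cannot be told apart. The study describes the 2 libraries of a day as biological duplicates, and the labels do not say how many organoids each one pooled. The p-values below therefore rest on 2 libraries of 1 line.

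Ependymal cells line the ventricles of the brain and carry tufts of motile cilia whose beat moves the cerebrospinal fluid. Such a cell arises from a radial glial precursor when GMNC and MCIDAS, partners of E2F factors, start a program that multiplies centrioles on deuterosomes, organelles built on DEUP1, in cells that have stopped dividing. FOXJ1 and the RFX factors then switch on the parts of the axoneme, the cilium's core of outer doublet microtubules and a central pair, with its dynein motors, radial spokes and inner tubule proteins. Notch signalling holds precursors back from this program in several ciliated tissues, and mature ependyma keeps glial genes such as VIM and AQP4.

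The share of cells that passed the gate was set beside the share in cells that should lack motile cilia. Oligodendrocyte-lineage cells, expected to lack motile cilia, were defined by a UMI of at least 2 of MBP, MAG and SOX10 and by fewer than 3 STMN2 UMIs. The marker limit was met by 6 of 715 such cells in D45 library A (0.839%, exact 95% interval 0.309 to 1.82%) and by 12 of 775 in library B (1.55%, 0.803 to 2.69%). The share of gated cells among all D45 cells within the limits was 2.35% in library A (2.07 to 2.66%) and 1.78% in library B (1.54 to 2.04%), which in library A was above the interval of the background and in library B inside it. The median depth was 13273 and 12178 UMIs in these oligodendrocyte-lineage cells and 20342 and 20225 UMIs in the gated cells, beside 9075 and 9597 UMIs in the D45 cells that did not pass the gate. These shares have unlike denominators, since the D45 total includes cells with 3 or more STMN2 UMIs, which could not pass the gate. The comparison therefore cannot decide whether library B stood above the oligodendrocyte-lineage cells. The account that follows rests on how many ciliary transcripts a cell held and on genes the gate did not use. Intervals of this kind cover counting error only.

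Cells close to the limits were common. A total of 74 gated cells in library A and 64 in library B had only 2 UMIs of the 3 markers together, while the cell with the most had 103 and 98. STMN2 was at 2 UMIs in 62 and 43 gated cells, and 26 and 19 cells that met every other limit were left out at 3 UMIs. The gated cell with the most detected genes had 6993 in library A and 6976 in library B, and the nearest cells left out had 7002 and 7060. No barcode of a gated cell occurred among the gated cells of another library, and pairs of libraries shared between 55 and 119 barcodes in all. A preset share of the highest Scrublet scores was called doublets in each library, 8.26% and 7.54% of barcodes in D45 libraries A and B. By that call 3 gated cells in each D45 library were doublets (1.21% and 1.52%), against 4.29% and 3.73% of the other D45 cells.

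To measure the program independently of the marker genes, the UMIs of 80 genes of 7 axoneme lists (outer and inner dynein arms, dynein assembly factors, radial spokes, the central pair, the nexin-dynein regulatory complex, and tektins with microtubule inner proteins), without RSPH1 and TEKT1, were summed in each cell per 10000 UMIs. This axoneme share had a median of 74.4 in the gated cells of D45 library A, with 10th and 90th percentiles of 21.7 and 272. In library B the median was 40.0, with 19.4 and 227. The other D45 cells had medians of 13.0 and 13.3. The spread among the gated cells was therefore wide, from cells at the level of their neighbours to a highest value of 411 in library A and 362 in library B.

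The gated cells of the earlier days passed the identical limits and served as a reference, which was chosen after the values had been seen. The highest axoneme share of any gated cell on day 11 or day 28 was 74.0. On D45, 124 of 247 gated cells (50.2%) lay above that value in library A and 68 of 198 (34.3%) in library B, with 20 and 17 cells within 20% of it. Among the other D45 cells 132 (1.29%) and 59 (0.539%) were above it. The number of detected markers moved with the share: 84 of 99 cells with all 3 markers (84.8%) and 40 of 148 with 2 (27.0%) exceeded the reference in library A, and 48 of 72 (66.7%) and 20 of 126 (15.9%) did so in library B. Cells with all 3 markers were also deeper, with medians of 24965 and 25080 UMIs against 15332.5 and 18022.5. The 2-marker cells above the reference were shallow, with medians of 4448 and 6198.5 UMIs, as were the other D45 cells above it, at 3623 and 3297 UMIs. The part of depth in these shares was not tested.

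**Figure D1:**
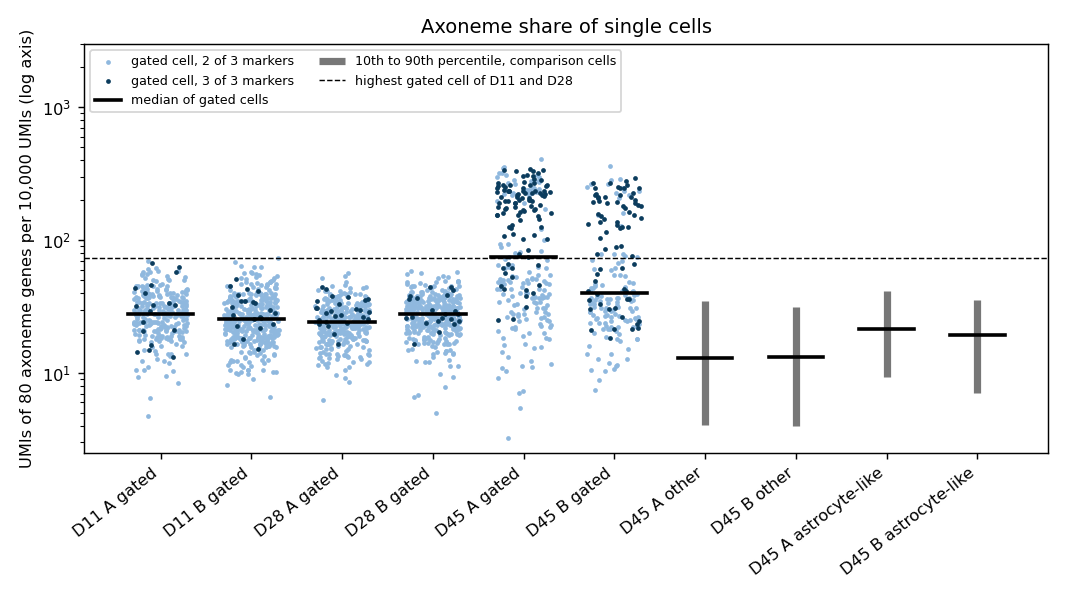
Axoneme share of single cells, in UMIs of 80 axoneme genes per 10000 UMIs on a log axis. Each point is a gated cell of 1 library, pale for 2 markers and dark for all 3, black bars are medians, grey bars span the 10th to 90th percentiles of the D45 comparison cells, and the dashed line is the highest gated cell of D11 and D28 (74.0). Only the D45 libraries have gated cells above the line, 124 in A and 68 in B, and most of their 3-marker cells lie there.

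The limit of 7000 detected genes left out many cells with a high axoneme share. In library A 110 cells with more detected genes met the marker and STMN2 limits, and 102 of them (92.7%) had an axoneme share above 74.0. In library B 25 did, and all 25 were above it. Their median axoneme shares were 224 and 249. Those above the reference held a median of 40280 and 39581 UMIs, against 21636 and 20876 in the gated cells above it. By the preset share of Scrublet scores, 1 of the 110 and 0 of the 25 were called doublets. This does not settle whether such deep barcodes held a single cell. The STMN2 limit left out 94 and 60 cells with 2 or more markers, of which 33 and 17 exceeded the reference. The gate thus left out cells with an axoneme share above the reference and also held many cells at or below it.

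Summed over cells, the gated cells were compared with all other D45 cells of the same library by edgeR's quasi-likelihood test with the library as a block. Genes of motile cilia rose almost without exception: of 115 tested genes in the 9 motile cilium lists 110 rose and 0 fell, with a median log2 fold change of 3.13 against -0.08 over all genes. Over all 19890 genes tested, 19.8% were called higher and 21.9% lower at an adjusted p under 0.05. All 78 tested genes of the 7 axoneme lists rose. The 5 genes without a call, E2F4, TFDP1, RFX1, CEP152 and SASS6, are regulators or general centriole genes that many cells use, with log2 fold changes between -0.42 and 0.11. Together the measured genes of the 9 lists, the 3 gate genes included, made up 19900 and 13600 CPM (UMIs of a gene per 1000000 UMIs of the summed cells) in the gated cells of libraries A and B, against 2770 and 2520 CPM in the other cells. The total was 8293 calls. With library A or library B left out, each group kept a single sum and no library block could be fitted, so the model changed as well. A call lost in such a fit of D45 cells, here and below, therefore cannot show whether the libraries differed. With 4 sums and a library block, edgeR takes nearly all of its information on spread from other genes. Adjusted p-values of this comparison are therefore given only where an alternative that kept both libraries ended a call. An SE printed with a log2 fold change, here and below, was derived from the test statistic of the same fit. It is not the spread of the fold change between the libraries, which can be wider.

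**Figure D2:**
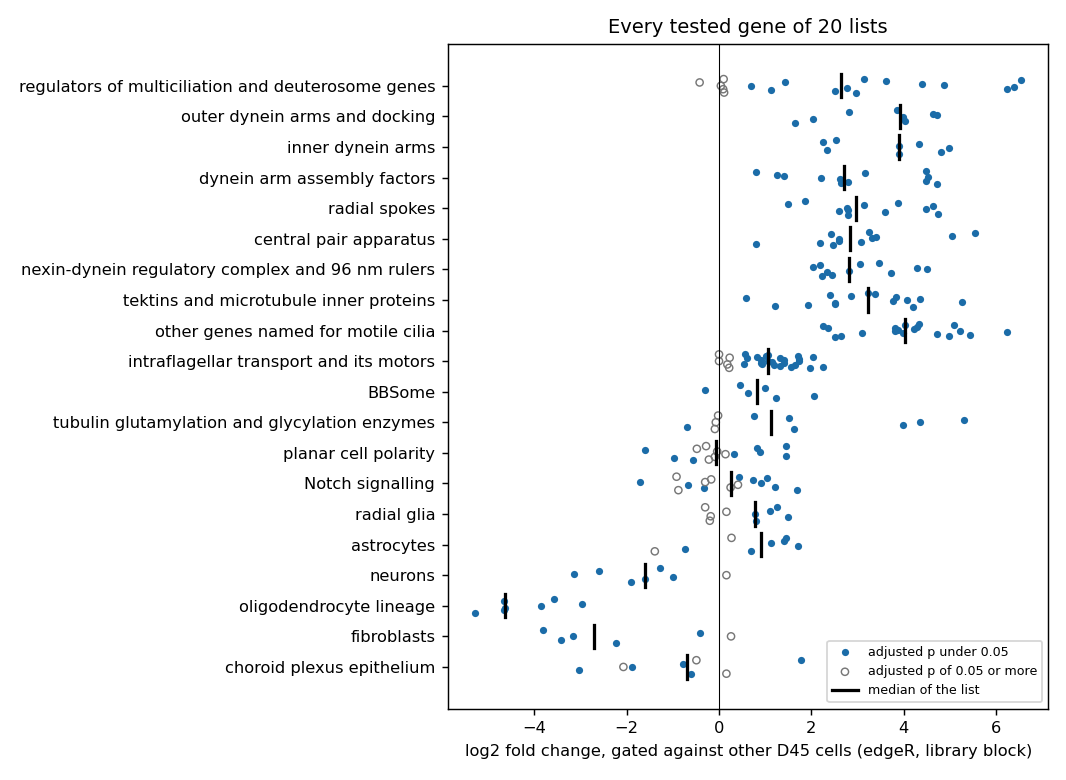
Log2 fold change of every tested gene of 20 lists, gated against other D45 cells, from edgeR with a library block. Each point is a gene, filled where its adjusted p is under 0.05, and black bars are list medians; genes used by the gate are not drawn. The 7 axoneme lists lie wholly to the right of 0, with medians between 2.72 and 3.92, and oligodendrocyte-lineage genes lie wholly to the left with a median of -4.64.

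The regulators that start multiciliation and the deuterosome genes included the largest log2 fold change of the motile cilium lists. MCIDAS, the coregulator that commits a cell to multiple cilia, was at 95.1 and 95.9 CPM in the gated cells of libraries A and B and at 1.42 and 0.851 CPM in the other cells (log2 fold change 6.54, SE 0.183). CCNO, a cyclin-like protein of deuterosome-driven centriole amplification, was at 86.1 and 62.6 CPM against 1.58 and 0.498 (6.39, SE 0.193). CDC20B, a deuterosome-associated relative of the mitotic activator CDC20, was at 425 and 366 CPM against 7.98 and 3.97 (6.23, SE 0.152). The mean CPM of the 2 libraries in gated cells was 84.2, 71.6 and 66.2 times that in other cells for these 3 genes, and the groups were far apart in both libraries.

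GMNC, which acts upstream of MCIDAS, was at 38.2 and 41.9 CPM against 5.42 and 4.53 (log2 fold change 3.13, SE 0.188). MYB and TP73, transcription factors of early multiciliated precursors, were at 26.0 and 36.1 CPM and at 30.3 and 30.3 CPM, against at most 1.73 CPM in other cells. DEUP1, the scaffold of the deuterosome, stood at 272 and 212 CPM against 38.6 and 37.2, a log2 fold change of 2.78, and other D45 cells thus also held its transcripts. Among the RFX factors, which bind the X-box of ciliary promoters, RFX2 rose from 37.7 and 42.0 to 501 and 405 CPM (3.62) and RFX3 from 278 and 257 to 726 and 600 CPM (1.42), while RFX1 had no call. PLK4 and STIL, which start a new centriole, rose by 1.12 and 2.51 on the log2 scale. With either library left out PLK4 and RFX3 had no call. Without libraries A and B, PLK4 was at 1.25 and 0.88 and RFX3 at 1.31 and 1.43. In all 13 of 18 tested genes of this list rose and 0 fell. The gate gene FOXJ1 itself was at 276 and 266 CPM in the gated cells and at 7.31 and 4.86 CPM in the rest.

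**Figure D3:**
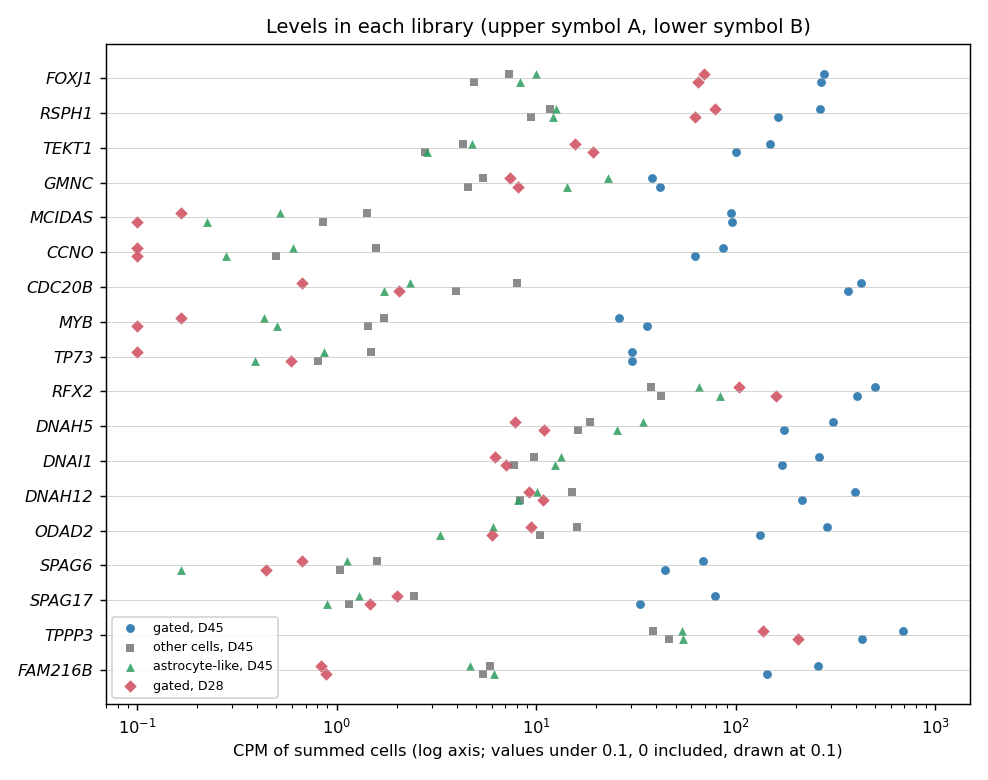
Level of 18 motile cilium genes in CPM on a log axis, 1 symbol per library (upper A, lower B), in gated D45 cells, other D45 cells, astrocyte-like D45 cells and gated D28 cells. FOXJ1, RSPH1 and TEKT1 were used by the gate. For MCIDAS, CCNO, CDC20B, MYB and TP73 the gated D45 cells lie at 26.0 to 425 CPM, and every other group lies under 8 CPM.

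The genes CDC20B, MCIDAS and CCNO are neighbours in the genome. In RefSeq's annotation of Sscrofa11.1, the build the files use, CDC20B (34294486 to 34354588), MCIDAS (34377130 to 34386095) and CCNO (34387179 to 34390611) lie on the minus strand of chromosome 16 within 96.1 kb, and 1083 bases separate MCIDAS from CCNO. GPX8, which lies inside the CDC20B gene on the opposite strand, lay between 104 and 151 CPM in each of the 3 subsets of gated cells described further on. CDC20B, MCIDAS and CCNO had no UMI in the subsets defined by lacking them, so GPX8 is the only one of the 4 whose spread over the subsets is a measurement.

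Because RFX factors and FOXJ1 act through short promoter motifs, the 300 bases around each gene start (250 before, 50 after) were read from the genome and searched on both strands for the RFX core motif GTTGCC, its longer form GTTGCCATG and the forkhead motif TGTTTAC. A promoter was found for 111 of the 120 measured genes of the motile cilium lists. The core motif occurred in 30 of them (27.0%), against 2563 of 19506 promoters of protein-coding genes (13.1%). The longer form, which contains the core motif, occurred in 5 (4.5%) against 238 (1.22%), and the forkhead motif in 5 (4.5%) against 517 (2.65%). Many matches lay in interspersed repeats, which the reference genome marks: counting only matches with no repeat base, the core motif occurred in 27 motile cilium promoters (24.3%) against 1918 of all (9.83%), the longer form in 4 (3.6%) against 106 (0.543%) and the forkhead motif in 5 (4.5%) against 441 (2.26%). The matches in CDC20B, in the dynein gene DNAH5 and in DNAJB13, a radial spoke gene, lay in repeats. Outside repeats the core motif also occurred in 4 of 8 astrocyte promoters and 3 of 7 neuronal ones, lists too short for a comparison of shares. These are matches of letters in a fixed window and not sites of binding. The promoter of CCNO is printed because the gene marks the stage of centriole amplification, and those of CFAP74 and KIF9, central pair proteins, TEKT3, a tektin of the doublet microtubules, and DNAH2, a heavy chain of the inner dynein arms, because they are the 4 that hold the longer form outside repeats. Sequence is given 5′ to 3′ along the gene, and capitals mark every match of the core motif or of the longer form.
CCNO promoter, chr16:34390562-34390861, minus strand: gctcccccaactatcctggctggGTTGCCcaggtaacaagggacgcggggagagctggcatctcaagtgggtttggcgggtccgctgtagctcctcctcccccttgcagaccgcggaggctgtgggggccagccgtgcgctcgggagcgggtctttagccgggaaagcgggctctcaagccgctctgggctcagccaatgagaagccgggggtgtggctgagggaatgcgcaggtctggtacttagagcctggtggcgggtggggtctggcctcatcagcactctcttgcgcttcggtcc
CFAP74 promoter, chr6:64038850-64039149, minus strand: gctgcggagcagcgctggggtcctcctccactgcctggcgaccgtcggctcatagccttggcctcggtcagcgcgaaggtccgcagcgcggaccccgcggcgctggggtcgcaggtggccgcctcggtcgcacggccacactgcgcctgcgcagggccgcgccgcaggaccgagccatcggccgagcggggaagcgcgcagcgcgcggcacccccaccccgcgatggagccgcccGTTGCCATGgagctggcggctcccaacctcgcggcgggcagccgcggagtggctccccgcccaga
KIF9 promoter, chr13:30062822-30063121, minus strand: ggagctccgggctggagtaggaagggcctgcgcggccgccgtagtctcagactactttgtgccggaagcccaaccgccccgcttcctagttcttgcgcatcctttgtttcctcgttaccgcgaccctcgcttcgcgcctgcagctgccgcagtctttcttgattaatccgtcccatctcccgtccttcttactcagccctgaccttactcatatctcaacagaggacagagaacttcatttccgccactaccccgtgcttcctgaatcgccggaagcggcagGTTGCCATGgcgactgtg
TEKT3 promoter, chr12:58773351-58773650, minus strand: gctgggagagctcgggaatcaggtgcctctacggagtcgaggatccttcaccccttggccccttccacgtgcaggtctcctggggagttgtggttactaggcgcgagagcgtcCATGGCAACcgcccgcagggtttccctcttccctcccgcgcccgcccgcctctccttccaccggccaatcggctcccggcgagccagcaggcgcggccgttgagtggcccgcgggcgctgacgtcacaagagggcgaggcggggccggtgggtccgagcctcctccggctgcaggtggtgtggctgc
DNAH2 promoter, chr12:52981967-52982266, plus strand: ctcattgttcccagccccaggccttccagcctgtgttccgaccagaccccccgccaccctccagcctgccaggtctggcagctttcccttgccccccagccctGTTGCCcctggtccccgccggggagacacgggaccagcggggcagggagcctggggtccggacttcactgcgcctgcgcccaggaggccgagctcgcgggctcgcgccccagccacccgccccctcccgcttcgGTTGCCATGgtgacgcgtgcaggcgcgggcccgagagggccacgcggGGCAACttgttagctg
The promoters of FOXJ1, RSPH1, TEKT1 and MCIDAS held none of the 3 letter strings in this window. CFAP74 was at 60.8 and 35.6 CPM in the gated cells of libraries A and B against 12.1 and 10.3 in the others, KIF9 at 85.5 and 60.0 CPM against 13.1 and 15.1, TEKT3 at 23.4 and 13.1 CPM against 2.44 and 1.38, and DNAH2 at 15.2 and 7.06 CPM against 2.33 and 2.59. The groups were apart in both libraries for each of these genes.

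Every tested component of the axoneme rose, and the median change was larger for the dynein arms than for the other axoneme lists. The 8 tested genes of outer dynein arms, which drive the beat, had a median log2 fold change of 3.92. DNAH9 was at 353 and 174 CPM against 42.8 and 34.0, DNAH5 at 307 and 174 against 18.7 and 16.2, and the intermediate chain DNAI1 at 261 and 171 against 9.73 and 7.76. The docking protein ODAD2 was at 288 and 133 CPM against 16.1 and 10.5. NME8 and ODAD3 had no UMI in the gated cells, and NME8 had 4 UMIs among the other D45 cells of library B and ODAD3 none in any D45 group, so neither was tested. The 8 inner arm genes, which shape the bend, had a median of 3.89. DNAH6 was at 421 and 238 CPM against 25.6 and 21.1, and DNAH12 at 394 and 215 against 15.2 and 8.29.

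The factors that fold and load dyneins in the cytoplasm rose in 12 of 12 cases with a median of 2.72. LRRC6 was at 206 and 149 CPM against 31.3 and 30.6, and ZMYND10 at 162 and 103 against 6.56 and 6.12. In the radial spokes, which pass signals from the central pair to the dyneins, 12 of 12 tested genes rose with a median of 2.96. CFAP61 was at 356 and 258 CPM against 60.1 and 48.7, and CFAP91 at 298 and 191 against 23.4 and 19.8. RSPH4A, a spoke-head protein the gate did not use, was at 145 and 99.6 CPM against 9.12 and 8.62. The gate gene RSPH1, another spoke-head protein, stood at 263 and 162 CPM against 11.8 and 9.39.

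Genes of the central pair apparatus summed to 3000 and 1970 CPM against 427 and 391, close to the 2970 and 2150 CPM of the tektins and microtubule inner proteins, and all 12 of its tested genes rose. SPAG16 was at 1120 and 761 CPM against 199 and 172, and CFAP46 at 428 ± 106 against 75.2 ± 0.294 CPM (SD, n = 2 libraries). SPAG6 and SPAG17, which brace the central pair, were lower in level but rose by 5.54 and 5.05 on the log2 scale. All 11 genes of the nexin-dynein regulatory complex and the axonemal rulers rose, led in level by the ruler protein CCDC39 at 168 and 98.6 CPM against 25.9 and 25.7, and by DRC1 at 119 and 83.5 against 11.4 and 8.53. Tektins and proteins of the tubule lumen rose in 15 of 15 cases. MNS1 was at 727 and 498 CPM against 119 and 111, and the gate gene TEKT1 at 124 ± 33.8 CPM against 3.53 ± 1.09 (SD, n = 2 libraries).

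Other genes known from motile cilia rose in 19 of 19 cases with a median of 4.03. TPPP3, a microtubule-bundling protein, was at 686 and 430 CPM against 38.5 and 46.1, and the centrin CETN2 at 422 and 309 against 70.2 and 68.5. FAM216B was at 259 and 144 CPM against 5.85 and 5.41. For all 9 motile cilium lists the summed level of the gated cells was higher in library A than in library B, and so was the share of gated cells above the axoneme reference.

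The machinery that every cilium uses changed much less than the motile axoneme. Of 29 genes of intraflagellar transport, the traffic along primary and motile cilia alike, 24 rose and 0 fell, with a median log2 fold change of 1.06. IFT80 was at 322 and 296 CPM against 129 and 125, IFT88 at 350 and 236 against 99.3 and 89.5, and the kinesin subunit KIF3A at 196 and 168 against 203 and 190. In the BBSome, the cargo adaptor of ciliary membranes, 5 of 6 genes rose. BBS9 was at 495 and 348 CPM against 115 and 102, and BBS4 fell from 276 and 224 to 206 and 168 CPM, a call that was lost without the library block (adjusted p = 0.229), in DESeq2 (adjusted p = 0.138) and under 5 other limits on cells or genes. Among the tubulin glutamylation and glycylation enzymes 6 of 10 rose and 1 fell. TTLL5, the highest, was at 202 and 149 CPM against 66.5 and 65.8, AGTPBP1, which trims glutamate chains, was at 133 and 95.9 against 138 and 123, and TTLL11 fell from 27.2 and 23.9 to 14.2 and 15.1 CPM. TTLL11 had no call with all 3 markers (-0.41, adjusted p = 0.198), with no STMN2 UMI (-0.55, adjusted p = 0.123) or with markers judged in 50% of the UMIs (-0.36, adjusted p = 0.289). TTLL9, TTLL8 and TTLL6, enzymes of motile cilia, rose by 3.99, 4.35 and 5.30 on the log2 scale.

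Planar polarity proteins, which align the tufts of cilia, showed no common direction: of 14 genes 5 rose and 3 fell, with a median of -0.07. The cadherin CELSR1 was at 66.6 and 50.2 CPM against 22.8 and 23.3, FZD3 at 134 and 118 against 117 and 101, and PRICKLE2 at 103 and 101 against 103 and 135. PTK7, PRICKLE1 and CELSR3 fell. Of 15 genes of Notch signalling 6 rose and 3 fell. Over all genes tested 19.8% were called higher and 21.9% lower, so the falls in both lists were near the share over all genes. The glycosyltransferase LFNG was at 116 and 125 CPM against 34.7 and 47.9 and the target HEY1 at 40.8 and 53.0 against 19.5 and 23.9, whereas the ubiquitin ligase MIB1 was at 139 and 120 against 191 and 162, HES6 at 35.0 and 21.2 against 49.5 and 46.9, and the ligand DLL1 at 6.87 and 5.3 against 21.4 and 22.1.

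Beyond the cilium the gated cells carried glial transcripts. The STMN2 limit kept neurons out of the gated cells only, and its part in the rises of glial genes was not tested. The intermediate filament VIM was at 12100 and 18100 CPM against 4190 and 5380 and rose by 1.75 on the log2 scale. Its call was lost with either library left out, at 1.84 without library A and 1.57 without library B. CDH2, an adhesion molecule of ventricular cells, was at 644 and 734 CPM against 393 and 389. Of the 7 tested ependymal genes outside the axoneme 6 rose and 0 fell, beside 19.8% called higher and 21.9% called lower over all genes tested. The water channel AQP4 was at 152 and 211 CPM against 60.7 and 83.0, and GFAP at 178 and 299 against 87.9 and 102. Of the 8 astrocyte genes tested 5 rose, the glutamate transporter SLC1A3 among them at 708 and 590 CPM against 217 and 207, and its relative SLC1A2 fell from 75.4 and 66.5 to 61.4 and 23.0 CPM. Radial glial genes rose in 5 of 9 cases, with FABP7 at 1030 and 1310 CPM against 586 and 579 and PTPRZ1 at 1060 and 1080 against 680 and 666. In library A 49.0% and in library B 64.6% of gated cells had a UMI of 2 or more of AQP4, GFAP and GJA1, against 10.0% and 14.3% of the other cells. The gated cells were deeper, with medians of 20342 and 20225 UMIs against 9075 and 9597. The part of depth in these shares was not tested.

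Secreted and lipid carrier genes rose in 6 and fell in 2 of 10 cases, beside 19.8% called higher and 21.9% called lower over all genes tested. CLU was at 5850 and 5040 CPM against 1730 and 1730, SPARCL1 at 1890 and 2470 against 737 and 980, and APOE at 669 and 1010 against 316 and 488. IGFBP5 and APOD fell, to 118 and 102 CPM from 158 and 345 and to 0.859 and 5.55 CPM from 26.0 and 74.0.

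Transcripts of several other cell types were lower than in the rest of the organoid. All 7 oligodendrocyte-lineage genes fell with a median log2 fold change of -4.64, and MBP, a myelin protein, was at 11.8 and 13.9 CPM against 414 and 284 in the other cells. Of the 7 tested neuronal genes 6 fell; the highest, DCX, had no call at 150 and 130 CPM against 148 and 125, and GAP43 averaged 97.8 CPM over the libraries against 395. The gate had capped STMN2, which stood at 45.1 and 42.4 CPM against 849 and 904, while the other cells had no such limit. The falls of neuronal genes were therefore set in part by the rule and are a description. Fibroblast genes fell in 5 of 6 cases, with COL1A2 at 420 and 573 CPM against 441 and 1130 and COL3A1 at 7.3 and 99.9 against 186 and 597. The choroid plexus marker TTR had no UMI in the gated cells, and 4 of 8 tested choroid plexus genes fell while FOLR1 rose from 0.893 and 1.3 to 4.51 and 2.27 CPM. OTX2 and PRLR, the highest of that list, were at 11.0 and 22.5 and at 15.5 and 12.9 CPM.

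Genes of non-neural epithelia, some of which also bear motile cilia, were low. KRT18 and OVGP1 had no UMI in the gated cells, EPCAM was at 1.72 and 0.252 CPM, CDH1 fell from 21.0 and 36.7 to 14.4 and 6.05 CPM, and KRT8 rose from 0.646 and 0.67 to 9.45 and 3.53 CPM. Immune markers summed to 20.4 and 12.4 CPM against 21.4 and 21.2. PTPRC fell to 9.02 and 8.58 CPM, whereas AIF1 rose from 0.732 and 0.997 to 10.3 and 3.78 CPM, and TYROBP had no UMI. Endothelial markers summed to 39.3 and 46.7 CPM against 29.3 and 35.5, with PECAM1 at 28.6 and 20.9 and CLDN5 at 8.16 and 18.2 CPM, and KDR rose to 2.36 and 7.57 CPM. Of the 6 genes of dividing cells 3 rose and 0 fell: CDK1 was at 40.4 and 40.1 CPM against 17.1 and 20.1, BIRC5 and CCNB1 also rose, and CENPF and TOP2A, the highest, had no call at 79.0 and 76.7 and at 68.9 and 74.9 CPM.

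Of 20 tested positional genes 4 rose and 5 fell, shares close to the 19.8% and 21.9% over all genes tested. LHX2, of forebrain and dorsal territories, was at 61.0 and 53.0 CPM against 51.3 and 32.0, and the hypothalamic gene NKX2-1 at 20.4 and 38.1 against 30.7 and 43.3. LHX9, WNT8B and NKX6-1 rose and SIX3, EN1, EN2, EMX2 and RAX fell, and RAX, HOXB2 and HOXB4 had no UMI in the gated cells. Of the 10 floor plate genes NTN1 rose to 158 and 178 CPM from 82.3 and 120, FOXA2 rose to 8.16 and 8.32 CPM from 4.86 and 4.49, LMX1B fell to 1.5 and 3.28 CPM from 3.96 and 7.88, and SPON1 was at 139 and 98.9 against 97.0 and 116.

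Outside the lists, the genes that rose most in the gated cells included further genes known from cilia. By log2 fold change the 12 leading were FAM166B (6.00), C20orf85 (5.84), ANKRD66 (5.84), HOATZ (5.82), FAM166C (5.37), FLACC1 (5.34), WDR49 (5.32), WDR38 (5.30), RIBC2 (5.26), ACSM3 (5.23), CFAP73 (5.22) and CERKL (5.19). HOATZ, needed for motile cilia, was at 271 and 141 CPM against 4.77 and 2.97, and RIBC2, a tubule inner protein, at 120 and 61.6 against 2.93 and 2.05. ACSM3, an acyl-CoA synthetase of mitochondria with no place in the axoneme, was at 367 and 169 CPM against 10.3 and 5.01. The 8 largest falls were ST18 (-5.75), UGT8 (-5.54), DLX5 (-5.44), BCAS1 (-5.31), RAB33A (-4.69), NRN1 (-4.47), GAD1 (-4.37) and CLDN11 (-4.36). UGT8, BCAS1 and CLDN11 are genes of myelinating cells and DLX5 and GAD1 of inhibitory neurons, so several of the falls are genes of cell types outside the gate. BCAS1, for example, was at 6.01 and 8.32 CPM against 343 and 270. The STMN2 limit kept neurons out of the gated cells only. Against other cells with STMN2 under 3 UMIs, DLX5, NRN1 and GAD1 were at -3.27, -2.32 and -2.53. With either library left out ST18, UGT8, DLX5, BCAS1, NRN1 and GAD1 had no call, and the log2 fold change of GAD1 was -5.74 without library A. Among the rises WDR49 (5.05) had no call without library A.

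Since 10.0% and 14.3% of the other D45 cells had a UMI of 2 or more of AQP4, GFAP and GJA1, the gated cells were also set against astrocyte-like cells of the same library, which had a UMI of at least 2 of these genes, fewer than 3 STMN2 UMIs and did not pass the gate (742 cells in library A and 1202 in library B). The ciliary genes again rose, while most glial genes did not. Of 114 tested motile cilium genes 111 rose and 0 fell, with a median log2 fold change of 2.84 against -0.03 over all genes; of all 14593 genes tested 13.4% were called higher and 8.4% lower. Without the library block 105 of these genes were called higher. Fits that left out a library carry the limit given above. MCIDAS was at 0.52 and 0.223 CPM in the astrocyte-like cells (log2 fold change 8.11, SE 0.227, adjusted p = 3.09e-09), CDC20B at 2.34 and 1.73 CPM (7.65, SE 0.147, adjusted p = 7.04e-10) and CCNO at 0.606 and 0.279 CPM (7.46, SE 0.218, adjusted p = 3.78e-09). GMNC, the upstream regulator, was at 22.9 and 14.2 CPM in astrocyte-like cells (1.19, SE 0.187, adjusted p = 0.000961). The GMNC call was lost with either library left out, at 1.58 without library A and 0.75 without library B. All 77 tested axoneme genes rose. This comparison, too, rests on 4 sums with a library block, and its adjusted p-values and SEs carry the same limit.

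No gene of the secreted, radial glial or tested astrocyte lists rose over the astrocyte-like cells. Those cells had been picked by astrocyte genes, so genes found together with these can stand high in them by that choice. Its part was not tested. VIM was at 12100 and 11000 CPM in these cells and had no call (log2 fold change 0.40, adjusted p = 0.0747), though it was called higher with no filter on low counts (0.36, adjusted p = 6.97e-07). SLC1A3 was at 837 and 581 CPM (-0.07, adjusted p = 0.688) and was called lower against cells with all 3 astrocyte markers (-0.35, adjusted p = 0.0289). None of the 10 secreted and lipid carrier genes rose and 6 fell, among them SPARCL1 (-0.53), APOE (-0.63) and IGFBP5 (-1.13). APOE was at -1.33 with all 3 markers, and IGFBP5 at -0.52 against cells with all 3 astrocyte markers. Of the 9 radial glial genes 0 rose and 4 fell, FABP7 and PTPRZ1 at -0.57 and -0.59 among them. Of the 6 tested ependymal genes outside the axoneme 2 rose, 2 fell and 2 had no call, with a median log2 fold change of 0.34. ANKRD45 rose to 19.5 and 12.4 CPM from 5.54 and 5.86, and CD24, a surface protein of ependymal and immature cells, rose from 207 and 202 to 254 and 267 CPM, while RARRES2 and MLC1 fell (-0.42 and -0.71). AQP4, GFAP and GJA1 had defined the comparison cells and carry no test: they were at 364 and 366, 432 and 401, and 128 and 148 CPM there. All 6 genes of dividing cells rose, CENPF and TOP2A by 0.70 and 0.82 on the log2 scale. Against cells with all 3 astrocyte markers they were at 1.56 and 1.76, and TOP2A was at 1.65 with markers judged in 50% of the UMIs. Without libraries A and B, CENPF (0.77 and 0.58) and TOP2A (0.80 and 0.77) had no call. Of 12 tested Notch genes 0 rose and 2 fell, HES5 at 10.5 and 9.59 CPM in gated cells against 33.3 and 17.6 (-1.27, adjusted p = 0.00157) and HEY1 (-0.53, adjusted p = 0.0238). Without the library block SPARCL1, APOE, FABP7, PTPRZ1, CD24, HES5 and HEY1 had no call, with adjusted p from 0.0793 (HES5) to 0.252 (FABP7), while 105 motile cilium genes were still called higher. CD24, FABP7 and HEY1 had none in DESeq2 either (adjusted p = 0.131, 0.717 and 0.205). With either library left out SPARCL1, APOE, IGFBP5, FABP7, PTPRZ1, CD24, HES5 and HEY1 had none. IGFBP5 was at -1.59 without library A and -0.74 without library B. CENPF had no call among cells with all 3 markers (0.03), with markers judged in 50% of the UMIs (0.39, adjusted p = 0.0871) or with no upper limit on genes (0.07, adjusted p = 0.653), and TOP2A had none with no STMN2 UMI allowed (0.50, adjusted p = 0.438).

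Outside the lists the 12 largest rises in that comparison were C20orf85 (7.34), FAM166B (6.97), ANKRD66 (6.93), HOATZ (6.83), DYDC2 (6.63), JHY (6.51), FRMPD2 (6.33), CCNA1 (6.21), CCDC33 (6.19), ACSM3 (6.19), CERKL (5.99) and E2F7 (5.88). CCNA1, a cyclin, was at 86.1 and 84.8 CPM against 1.82 and 0.725, and E2F7, a repressor of the E2F family, at 54.5 and 65.1 against 1.73 and 0.558. JHY is known for ependymal cilia in the mouse. ANKRD66 (6.81 without library A, 7.05 without library B), DYDC2 (6.35 and 6.95) and JHY (6.99 and 6.28) had no call with either library left out. C20orf85 (6.94), CCDC33 (5.71) and CERKL (6.42) had none without library A. The 8 largest falls were TNMD (-3.16), COL6A3 (-2.79), TWIST2 (-2.73), BCAS1 (-2.62), ROR2 (-2.39), NPVF (-2.37), EBF1 (-2.28) and RUNX1T1 (-2.27), of which TNMD, COL6A3 and TWIST2 are genes of connective tissue. Fibroblast genes summed to 1150 and 2210 CPM in the astrocyte-like cells and 452 and 793 CPM in the gated cells, and their part in these falls was not tested. Without the library block TNMD, COL6A3, TWIST2, EBF1 and RUNX1T1 had no call (adjusted p from 0.0649 to 0.181), and against cells with all 3 astrocyte markers TNMD (-1.09), BCAS1 (-0.49), ROR2 (-0.96) and EBF1 (-0.54) had none (adjusted p from 0.0751 to 0.224). There the other 4 kept their call at smaller sizes, COL6A3 at -0.93, TWIST2 at -0.99, NPVF at -0.91 and RUNX1T1 at -1.32. With markers judged in 50% of the UMIs BCAS1 had no call (-0.76, adjusted p = 0.198). None of the 8 falls was called without library A or without library B, and the log2 fold change of TWIST2 was -4.82 without library B and that of NPVF -3.05 without library A.

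Within the gated cells CDC20B, CCNO and MCIDAS came from few cells. In library A 43 gated cells (17.4%) and in library B 33 (16.7%) had a UMI of CDC20B, CCNO or MCIDAS, against 11 of 709 and 21 of 763 oligodendrocyte-lineage cells (1.55% and 2.75%) outside the gate. Of these, 19 and 18 cells held all 3 genes, while no oligodendrocyte-lineage cell and 9 and 3 of the other cells did. CDC20B had 1978 UMIs in 35 gated cells of library A, 50% of them in 6 cells, and 1451 UMIs in 29 cells of library B, 50% of them in 7, and a single cell held up to 272. After each cell was thinned to 5000 UMIs, the share with any of the 3 genes was 11.7% and 12.6% in gated cells and 0.451% and 1.26% in oligodendrocyte-lineage cells, with 34 and 16 gated cells too shallow to be thinned.

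The gated cells were therefore described in 3 subsets, defined after their values had been seen and without a test: cells with a UMI of CDC20B, CCNO or MCIDAS (43 and 33 cells), cells without one whose axoneme share exceeded the reference of 74.0 (86 and 45), and cells without one at or below it (118 and 120). The first subset had a median axoneme share of 227 and 148, the next of 218 and 193, and the last of 36.1 and 29.6. The other D45 cells had medians of 13.0 and 13.3. The next subset is called ciliated cells without stage genes for its transcripts alone, since no cilium was observed. The last is called low-axoneme. Cells of the first subset are called stage cells here because these genes act while centrioles multiply. Most of them were also above the reference, but 5 of 43 in library A and 10 of 33 in library B were at or below it, so this subset mixes cells on both sides of the value that separates the other two.

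Other genes of centriole amplification stood highest in the stage cells. DEUP1 was at 916 and 862 CPM there, at 244 and 176 in the ciliated cells without stage genes and at 54.9 and 32.7 in the low-axoneme cells. PLK4 was at 728 and 650, 202 and 225, and 148 and 139 CPM in the same order, and STIL at 214 and 239, 6.57 and 6.02, and 4.36 and 6.2 CPM. FOXJ1, used by the gate, stood at 979 and 1060 CPM in the stage subset, above the 216 and 183 CPM of the ciliated cells without stage genes. MYB, E2F7 and CCNA1 were likewise concentrated in the stage cells, at 137 and 197, 296 and 359, and 388 and 452 CPM. GMNC was spread more evenly, at 53.5 and 81.1, 44.7 and 46.9, and 28.3 and 28.5 CPM.

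Single ciliary genes are given as a description, since the UMIs of genes such as DNAH9, SPAG16 and ODAD2 are part of the share that separated the ciliated cells without stage genes from the low-axoneme cells, while the stage cells were not chosen by it. DNAH9 was at 450 and 173 CPM in the stage subset and 733 and 577 in the ciliated cells without stage genes, FAM216B at 359 and 116 against 550 and 539, and SPAG16 at 1340 and 843 against 1840 and 1620. TPPP3 and ZMYND10 showed the opposite order, at 1350 and 1090 against 1170 and 788 and at 374 and 241 against 237 and 219 CPM. In the low-axoneme subset DNAH9 was at 64.9 and 35.2 CPM and ODAD2 at 10.5 and 4.96 CPM, beside the 42.8 and 34.0 and the 16.1 and 10.5 CPM of cells outside the gate. Others stood higher than outside the gate: SPAG16 at 558 and 440 against 199 and 172, and MNS1 at 310 and 266 against 119 and 111. Cells outside the gate were not alike, since the astrocyte-like ones had a median axoneme share of 21.6 and 19.2 against 13.0 and 13.3 for all. The low-axoneme subset was not compared with the astrocyte-like cells gene by gene. DNAI1 was at 36.6 and 27.3 against 9.73 and 7.76. SPAG6 lay near the cells outside, at 1.74 and 0.827 against 1.6 and 1.04.

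Cell-cycle genes did not move as 1 group. CDK1 was at 129 and 122 CPM in the stage subset against 19.2 and 18.6 in the low-axoneme cells, and TOP2A at 152 and 140 against 54.9 and 46.7. CENPF, a gene of late division, was lower in the stage subset, at 30.9 and 43.4 CPM against 120 and 86.4. UBE2C was at 22.6 and 26.6 CPM against 29.6 and 14.5.

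The low-axoneme subset, the largest of the 3 at 47.8% and 60.6% of gated cells, was highest in some glial transcripts. AQP4 was at 213 and 241 CPM there, 122 and 211 in the ciliated cells without stage genes and 41.6 and 109 in the stage cells. SPARCL1 was at 2590 and 3070, 1450 and 1630, and 760 and 1420 CPM in the same order, and APOE at 1140 and 1300, 174 and 291, and 279 and 832 CPM. Other glial transcripts had another order. SLC1A3 was highest in the ciliated cells without stage genes, at 981 and 954 CPM, as was CLU at 7060 and 6760 against 5450 and 4770 in the low-axoneme cells, and VIM was highest in the stage cells, at 14200 and 26100 against 13100 and 17700. COL1A2 was at 665 and 801 CPM in the low-axoneme cells, 161 and 135 in the ciliated cells without stage genes and 222 and 309 in the stage cells. The share of cells with 2 of the 3 astrocyte markers was 53.4% and 67.5% in the low-axoneme subset and 39.5% and 57.6% in the stage one. Mitochondrial UMIs had medians of 2.74% and 3.47% in the ciliated cells without stage genes and 1.96% and 2.35% in the stage cells, beside 0.7% and 1.17% outside the gate.

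**Figure D4:**
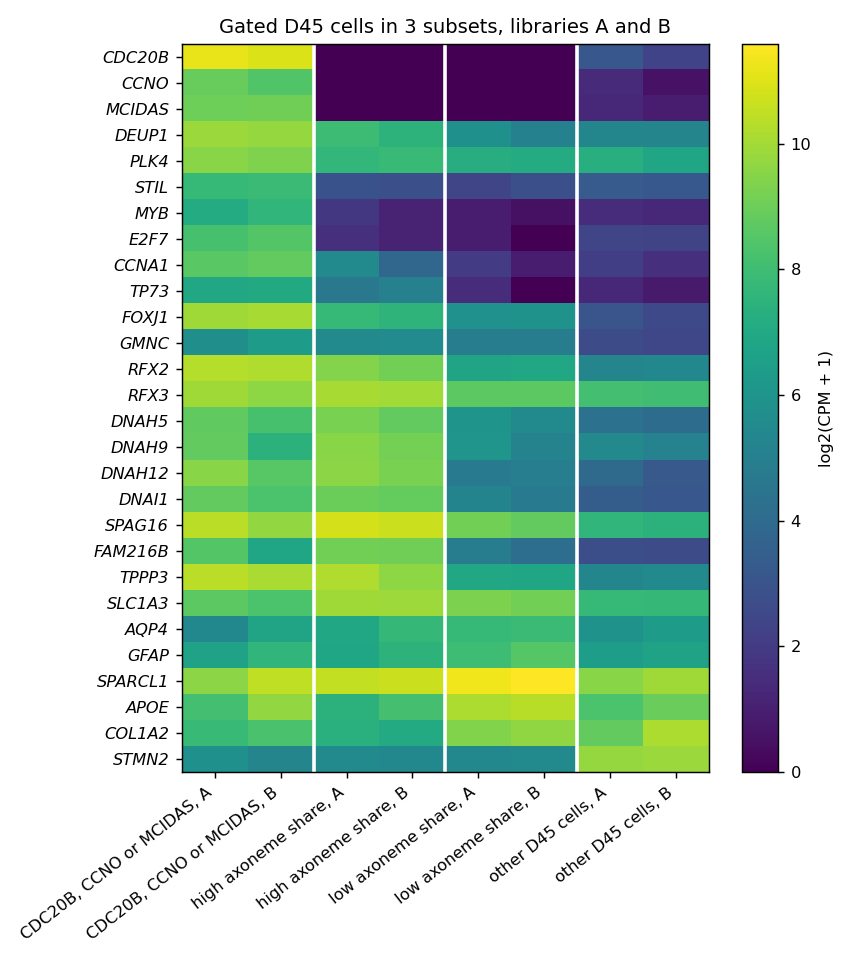
Levels of 28 genes as log2(CPM + 1) in the 3 subsets of gated D45 cells and in the other D45 cells, with libraries A and B side by side. The upper rows (CDC20B to CCNA1) are bright in the subset with CDC20B, CCNO or MCIDAS, whose cells were defined by the top 3 rows; axoneme genes are bright in that subset and in the ciliated cells without stage genes, and AQP4, GFAP, SPARCL1 and APOE are brightest in the low-axoneme subset.

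The same limits applied to the earlier days picked out cells with other transcripts. The gate passed 275 and 389 cells on day 11 (2.11% and 2.65% of cells within the UMI and gene limits) and 329 and 369 on day 28 (3.56% and 3.33%), so the mean share on D45 (2.06% ± 0.406, SD, n = 2 libraries) was below that on D28 (3.45% ± 0.161). With 2 libraries against 2 an exact two-sided permutation test cannot give a p under 0.333, which is what it gave. After thinning each cell to 2000 UMIs the order turned, with 0.617% ± 0.326 on D45, 0.128% ± 0.079 on D28 and 0.135% ± 0.05 on D11. With all 3 markers required the shares were 0.794%, 0.236% and 0.144%. No gated cell of the earlier days exceeded the axoneme share of 74.0, by definition of that reference, and 0.895% ± 0.403 of D45 cells were gated and above it. A few cells outside the gate lay above 74.0 on the earlier days: 8 and 9 on D11, the highest at 123 and 94.9, and 2 and 20 on D28, the highest at 104 and 436. Their median depths were 2364 and 2534 UMIs on D11 and 3240.5 and 3449.5 on D28, well under those of the other cells.

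Gated cells of D45 were tested against gated cells of D28 in edgeR with 2 libraries a day and no block. Of the tested motile cilium genes 95 were higher on D45, 1, E2F4, was lower (-0.95, and without a call in DESeq2, adjusted p = 0.0959, or among cells with all 3 markers, adjusted p = 0.619) and 17 had no call, with a median log2 fold change of 2.17 against -0.03 over all genes; of all 13686 genes tested 15.5% were called higher and 10.8% lower. CDC20B was at 0.67 and 2.06 CPM in the gated cells of D28 (log2 fold change 8.03, SE 0.441, adjusted p = 2.74e-05) and MCIDAS at 0.167 and 0.0 CPM, a single UMI, for which no fold is given. CCNO had no UMI on D28, and its D45 level was 157-fold above a floor of 3 UMIs per library. That floor takes UMIs as independent, whereas the 401 CCNO UMIs of D45 library A lay in 25 gated cells. The ratio is therefore no lower bound. The dynein genes DNAH5 and DNAI1 were at 7.87 and 10.9 and at 6.19 and 7.07 CPM on D28 (log2 fold changes 4.57 and 4.91). DNAI1 was at 6.87 with all 3 markers and at 5.59 with no upper limit on genes. Of the 29 transport genes 11 were higher and 1, IFT57, was lower, at 445 and 371 CPM on D28 against 195 and 142 (-1.41, adjusted p = 0.00811). The IFT57 call was lost without library A of D45 (-1.60) and without library B of D45 (-1.19). E2F4 had no call in those fits either (-0.94 and -0.92), nor without library B of D28 (-0.81).

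Genes of the floor plate, the ventral midline of the neural tube, ran the other way. All 10 were lower in the gated cells of D45, with a median of -2.82. SPON1 was at 564 and 1300 CPM on D28, NTN1 at 347 and 637, FOXA1 at 232 and 364 and CORIN at 222 and 296, against 21.9 and 16.4 CPM for CORIN on D45 (-3.86, SE 0.295, adjusted p = 3.6e-05). On D11 the gated cells had CORIN at 343 and 294 CPM and SPON1 at 1520 and 1390. Astrocyte genes rose in 6 of 6 tested cases, with GFAP at 1.0 and 0.147 CPM on D28. The gated cells of D28 and D45 therefore differed in the floor plate and glial genes as well as in the cilium, and the kind of cell and the time cannot be told apart in this comparison. Leaving out library A of D45 lowered the total of 3597 calls to 1971 and leaving out library B of D45 to 2200, while 5506 were made without library B of D28.

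Outside the lists the genes with the 5 highest fitted rises against D28, given here without an order, were ANKRD66, FAM166B, C20orf85, FRMPD2 and ECT2L (7.18). C20orf85 was at 0.0 and 0.295 CPM on D28 against 167 and 81.5 on D45, and FRMPD2 at 0.0 and 0.147 against 84.4 and 47.4, too few UMIs on D28 for a measured fold. ANKRD66 and FAM166B had no UMI on D28 and were 174-fold and 105-fold above the same floor on D45. These ratios carry the limit given for CCNO. The 5 largest falls were CMTM8 (-5.89), CMTM7 (-5.55), CCDC68 (-5.47), GIPR (-5.37) and SLA-DQB1 (-5.16). CMTM8 was the most abundant of these, at 1630 and 1320 CPM on D28 and 33.3 and 20.9 CPM on D45. Depth differed as well, with median UMIs of 17245 and 17464 in the gated cells of D28, and its part in these changes was not tested.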

How the data were processed

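Single cells of 6 libraries, 2 per day, were captured with 10x GEM-X 3′ v4 chemistry. The authors deposited raw UMI counts per gene and cell barcode, made with Cell Ranger 8.0.1 per the file headers against Sscrofa11.1; Seurat 4.3.0 is named in the submitters' processing notes. UMIs were counted near the 3′ end, so CPM values are not scaled by gene length. The deposited matrices held 104820 barcodes, of which 103519 met the study's stated limits of 200 to 7000 genes and at most 10% mitochondrial UMIs, beside 103310 cells in the series' design text. Library totals ran from 112777548 to 182113104 UMIs. No deposited cell annotation was used, and groups came from the labels. The member rule and the gene lists were chosen with earlier results of these data known.

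UMIs of the gated cells, the other cells and the astrocyte-like cells were summed per library, scaled by TMM and tested with edgeR 4.0.16 (quasi-likelihood, filterByExpr, Benjamini-Hochberg adjustment over all genes tested, threshold 0.05) in R 4.3.3. The library was a block within D45, where both sums of a pair came from 1 library, and no block was used between days, where A and B are only names (correlation of deviations -0.09 over 13690 genes). FOXJ1, RSPH1, TEKT1 and STMN2 were left out of every test, as were AQP4, GFAP and GJA1 against astrocyte-like cells. On simulated counts the fits found 69.4%, 95.9% and 96.9% of genes changed 4-fold and 53.7%, 66.0% and 62.9% of genes changed 2-fold in the 3 comparisons. The simulated counts had a single fixed dispersion, no library effect and few changed genes. These rates are therefore not the power of the real comparisons. Exact tests used scipy 1.17.1. Doublets were called as the highest Scrublet scores (scanpy 1.11.5) at a preset rate of 0.4% per 1000 barcodes, and were kept. Named genes were the gate genes, the 2 with the highest CPM of each list, members that went against their list, other list genes, and outside the lists the 12 largest rises and 8 largest falls with 20 CPM or more in the higher group and no overlap between libraries (5 and 5 between days). CDC20B, CCNO and MCIDAS were picked as stage genes, and GPX8, UBE2C and the axoneme reference were added, after their values had been seen. The genes that define oligodendrocyte-lineage cells were chosen after values had been seen, and some listed genes, counted with their lists, are not reported here. Promoters were read from RefSeq's gene starts in Sscrofa11.1. Alternatives were DESeq2 1.42.0, other size factors, no filter, other cell limits and each library left out.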

Additional observations from a re-analysis of the deposited data

Results flagged for a closer look

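CDC20B, CCNO and MCIDAS differed in how far gated cells stood from other cells on D45 and on D28. These genes were singled out because their gated cells already differed between the days, so the interaction term fitted in edgeR restates that pattern and is given as a description without a p. It was 5.71 on the log2 scale for CDC20B, larger on D45. The fitted values for MCIDAS (7.46) and CCNO (10.38) depend on the prior count and are no measured sizes, since the gated cells of D28 held 1 UMI of MCIDAS and none of CCNO. The gated cells were selected on measured markers on both days, and the part of that selection in the differences was not tested.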

How the results depend on the processing

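The count of motile cilium genes called higher stayed within 1.5 times of its value under every alternative run against other D45 cells (79 to 110) and against D28 (74 to 101), and against astrocyte-like cells in all but the fits that left out a library (22 and 55). The total of calls moved more. Leaving out a library gave 524 to 870 calls against other D45 cells, 55 to 182 against astrocyte-like cells and 1971 to 5506 against D28, where the lone sample of a day was assumed to vary like the others. With no STMN2 UMI allowed the calls were 5452 and 1795 in the first 2 comparisons. Against astrocyte-like cells DESeq2 made 1458 calls, the fit with no replicate block 1309, and the fit with no upper limit on genes, added after seeing the data, 5223. With no replicate block 5544 genes were called against other D45 cells, and with the replicate block 3815 against D28, where the shared letters do not pair the samples. SLC1A3, which had no call against astrocyte-like cells, changed sign to 0.04 without library A (and was -0.23 without library B), to 0.08 with all 3 markers and to 0.00 with no STMN2 UMI, and was called lower against cells with all 3 astrocyte markers (-0.35, adjusted p = 0.0289). Sizes of single genes moved more than directions. Against other D45 cells the log2 fold changes of MCIDAS, CCNO and CDC20B ran from 5.43 (CDC20B, no STMN2 UMI or no upper limit on genes) to 7.58 (MCIDAS, all 3 markers), and CCNO was at 7.06 without library A. Among other cells with STMN2 under 3 UMIs the falls of DLX5, NRN1 and GAD1 shrank to -3.27, -2.32 and -2.53. Against astrocyte-like cells the rise of MCIDAS was 8.76 without library A and 7.52 without library B, that of E2F7 6.88 and 4.98, that of CCNA1 6.88 and 5.57, and CCDC33 was at 6.88 without library B. Against D28 CDC20B was at 8.92 without library B of D28, GIPR at -6.45 without library A of D45, and SLA-DQB1 at -4.51 and -6.06 without libraries A and B of D45. The mean share of gated cells on D11, D28 and D45 was 0.135%, 0.128% and 0.617% after thinning, 0.144%, 0.236% and 0.794% with all 3 markers, and 1.83%, 2.47% and 1.31% from 500 UMIs. Without the STMN2 limit it was 4.37% on D28 and 2.78% on D45, without the gene limit 2.64% on D45, and above the axoneme reference 0.0%, 0.0% and 0.895%, the last 2 settings added after seeing the data. The causes were not tested. The 2 libraries per day limit every test, and shallow cells hold few UMIs of any 1 ciliary gene.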
